A study of Rattus norvegicus with 4 samples.

Results

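The genes described here are 31 genes of sterol and fatty acid synthesis, out of 25534 genes tested on rat whole-genome oligonucleotide arrays. They were chosen by gene name: 17 enzymes of the sterol pathway, 6 genes that regulate it or move sterol within the cell, and 8 enzymes of fatty acid synthesis. The 31 genes had 46 probes, and the brightest probe stood for each gene. All 31 entered the test, which required a signal well above background in at least 1 dye on at least 2 arrays. The cells were rat hepatic stellate cells, the vitamin A-storing pericytes of the liver sinusoid that turn into myofibroblasts in fibrosis. The series addressed the role of endoglin, a co-receptor for TGF-beta and BMP ligands, in these cells. On 2 arrays the Cy5 dye carried RNA of cells transfected with an siRNA against endoglin, and on the other two it carried RNA of untreated cells. On all 4 arrays the Cy3 dye carried RNA of cells transfected with a control siRNA. In each group 1 array held RNA of 1 animal and 1 array held RNA pooled from 3 animals, and below these are called the 1-animal array and the pooled array.

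Not given in the sources used here are the strain, sex and age of the rats, the siRNA sequences, the time from transfection to harvest and the days in culture. The same holds for whether the pools included the single animals and whether 1 control RNA served several arrays. The control siRNA cells were measured only in Cy3, so p-values cover the spread between the ratios of 2 arrays per group and leave out the spread of control cultures. All 4 arrays lay on 1 slide with the dyes always the same way round, so a dye effect and a difference from the control siRNA cannot be told apart. These are bulk samples, in which fewer cells of a type and less RNA per cell cannot be told apart.

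Cells make cholesterol from acetyl-CoA through mevalonate, farnesyl diphosphate, squalene and lanosterol, and they make fatty acids from the same precursor through malonyl-CoA. The transcription factors SREBP-2 and SREBP-1, encoded by Srebf2 and Srebf1, switch on the genes of both routes. When membranes hold enough sterol, Insig proteins keep SREBP and its escort Scap in the endoplasmic reticulum, and when sterol is short the complex moves to the Golgi, where proteases release the active factor. Quiescent stellate cells hold retinyl esters and triglyceride in lipid droplets and lose many of them on activation.

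Endoglin mRNA was lower in cells given the endoglin siRNA. Relative to control siRNA cells, Eng had a log2 ratio of -3.08 on the 1-animal array and -1.72 on the pooled array, against -0.36 and -0.42 in untreated cells. Its mean ratio under the siRNA was -2.40 ± 0.26 (SE, n = 2 arrays; limma, adjusted p = 0.0051). In the deposited value table the ratios of both untreated arrays have the opposite sign; the labelled dyes set the direction given here. On 3 arrays 65.7% to 70.2% of gene spots passed the scanner software's background test in Cy5, and 93.3% did on the pooled untreated array, which stands apart from the others. All 12 stellate cell markers were well above background in both dyes on all 4 arrays, which goes with the labelled cell type. The same was true of several macrophage and hepatocyte markers, among them Cd68, C1qa, Cyp2e1 and Tf. Detection alone therefore does not tell the cell types apart.

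Under the endoglin siRNA, 3 of the 31 genes fell and 0 rose against control siRNA cells at an adjusted p under 0.05. The genes that fell were Me1, which makes NADPH for fatty acid synthesis, Hmgcs1, which makes the mevalonate precursor HMG-CoA, and Idi1, which isomerizes the isoprenoid building block. Among all genes tested 8.12% passed in either direction, with 2.87% lower and 5.25% higher. At an unadjusted p under 0.05 there were 10 of the 31 genes, against 23.1% of all genes. Both arrays lay below 0 for 25 of the 31 genes, against 27.4% of all genes, when ratios were normalized by loess. When each array was centred on its median instead, this held for 2 of 31, against 28.4% of all genes. Loess removes a trend of the ratio with brightness, whereas median centring leaves it in. On the brightness scale, 19 of the 31 genes lay in the brightest quartile of genes, where both endoglin siRNA arrays were below 0 for 32.8% of genes.

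**Figure D1:**
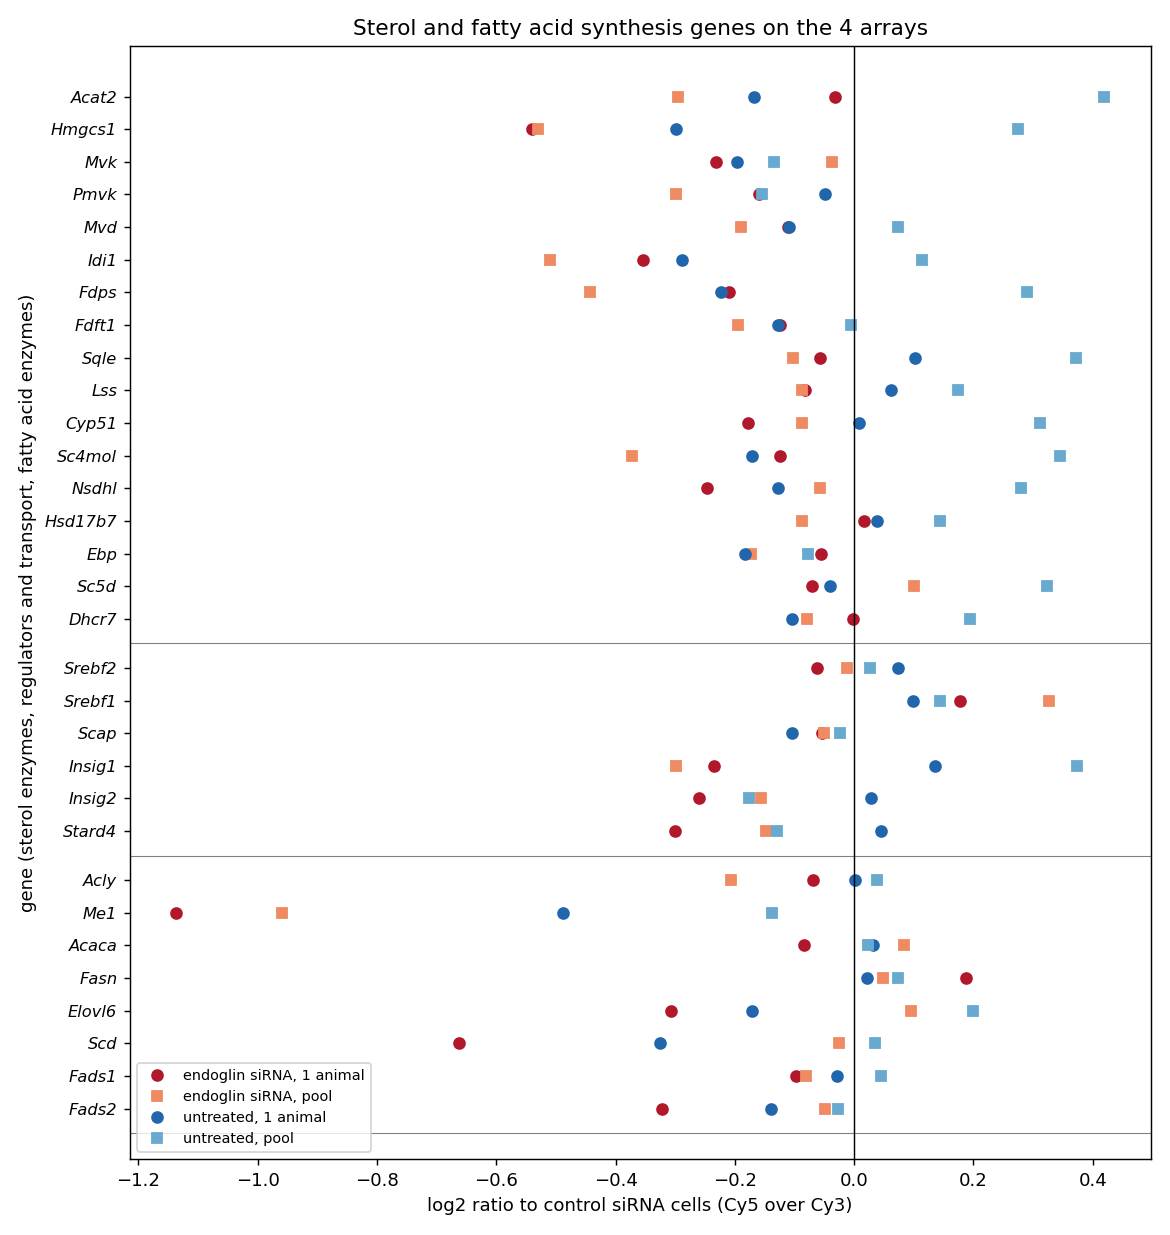
The plot gives the log2 ratio to control siRNA cells (horizontal axis) of each of the 31 genes (vertical axis) on each array after loess; red and orange points are endoglin siRNA, blue points are untreated, circles are 1 animal and squares are the pool. Me1 lay farthest to the left at -1.14 and -0.96, and the pooled untreated array lay to the right of 0 for 22 of the 31 genes; under median centring 2 of 31 mean ratios of the endoglin siRNA arrays were below 0, in place of 28.

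Hmgcs1, at the head of the sterol pathway, had log2 ratios of -0.54 and -0.53 on the 1-animal and pooled endoglin siRNA arrays, and of -0.30 and 0.28 on the untreated arrays. Both endoglin siRNA arrays lay below both untreated arrays. The mean ratio under the siRNA was -0.54 ± 0.12 (SE, n = 2), a 1.45-fold lower level than in control siRNA cells (limma, adjusted p = 0.0411), and it turned to 0.62 under median centring (adjusted p = 0.248). Idi1 had ratios of -0.35 and -0.51 under the siRNA, and of -0.29 and 0.11 in untreated cells. The groups again did not overlap, but the 1-animal arrays of the 2 groups were only 0.064 apart. Its mean under the siRNA was -0.43 ± 0.10 (SE, n = 2), a 1.35-fold lower level (limma, adjusted p = 0.0428), and 0.65 under median centring (adjusted p = 0.248). Without either endoglin siRNA array, Hmgcs1 and Idi1 no longer passed: adjusted p was 0.0854 and 0.139 without the pooled array, and 0.154 and 0.0874 without the 1-animal array.

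Me1, the cytosolic malic enzyme, had ratios of -1.14 and -0.96 on the 1-animal and pooled endoglin siRNA arrays, and of -0.49 and -0.14 on the untreated arrays. All 4 arrays were below 0, with the endoglin siRNA arrays lowest. The mean ratio under the siRNA was -1.05 ± 0.09 (SE, n = 2), a 2.07-fold lower level (limma, adjusted p = 0.00417). Me1 still passed without the 1-animal array (-0.96, adjusted p = 0.0166) and without the pooled array (-1.14, adjusted p = 0.0024). It turned to 0.20 under median centring (adjusted p = 0.723). With the log ratios of the scanner software, Me1, Hmgcs1 and Idi1 had means of -1.09, -0.52 and -0.45, none of which passed (adjusted p = 0.0747, 0.172 and 0.177), nor did any of the 25534 genes, of which 7111 had an unadjusted p under 0.05.

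The proximal promoters of these 3 genes are shown because their mRNAs were the ones that passed. They are RefSeq sequences of the assembly GRCr8, from 250 bases before to 50 bases after the annotated start, written 5′ to 3′ on the gene's strand. Capitals mark CCAAT, the box bound by NF-Y, and GGGCGG, the GC box bound by Sp1, or their reverse complements ATTGG and CCGCCC; both factors are known partners of SREBP at sterol genes. Hmgcs1 lies on the plus strand at chr2:53382054-53382353 and had 2 CCAAT boxes and 4 GC boxes. Idi1 lies on the minus strand at chr17:66547475-66547774 and had 2 CCAAT boxes and 0 GC boxes. Me1 lies on the minus strand at chr8:96540195-96540494 and had 0 CCAAT boxes and 5 GC boxes.
Hmgcs1: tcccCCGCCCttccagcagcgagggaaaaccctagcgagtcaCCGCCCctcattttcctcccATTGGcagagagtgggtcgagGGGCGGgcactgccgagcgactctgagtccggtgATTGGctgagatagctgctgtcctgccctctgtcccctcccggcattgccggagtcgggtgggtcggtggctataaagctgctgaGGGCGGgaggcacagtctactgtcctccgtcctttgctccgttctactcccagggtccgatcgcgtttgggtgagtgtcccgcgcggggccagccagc
Idi1: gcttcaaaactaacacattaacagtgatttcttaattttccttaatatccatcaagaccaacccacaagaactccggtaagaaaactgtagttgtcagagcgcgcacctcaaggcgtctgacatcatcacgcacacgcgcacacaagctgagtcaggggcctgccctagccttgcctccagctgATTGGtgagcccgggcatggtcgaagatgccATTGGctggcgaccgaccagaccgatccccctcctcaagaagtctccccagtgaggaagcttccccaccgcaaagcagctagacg
Me1: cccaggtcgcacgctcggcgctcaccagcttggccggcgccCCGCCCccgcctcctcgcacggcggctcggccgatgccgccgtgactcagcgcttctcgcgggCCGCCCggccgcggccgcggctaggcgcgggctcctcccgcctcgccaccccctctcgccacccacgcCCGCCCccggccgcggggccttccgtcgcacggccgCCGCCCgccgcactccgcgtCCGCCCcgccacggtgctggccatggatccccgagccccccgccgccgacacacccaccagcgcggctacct

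A promoter entry was matched for 24 of the 31 genes. CCAAT on either strand was in 11 of 14 sterol enzyme promoters (78.6%), in 4 of 5 of the regulators (80.0%) and in 2 of 5 of the fatty acid enzymes (40.0%). Among all 33469 promoters of the same length 37.5% held it, and among the 7996 tested genes with an entry 39.2%. GGGCGG on either strand was in 12 of 14, 4 of 5 and 4 of 5 promoters of these groups, against 33.1% of all promoters and 58.8% of the tested genes with an entry. The E-box CACGTG, which reads the same on both strands, was in 1 of 14, 2 of 5 and 0 of 5, against 6.42% of all promoters. Matches that share letters were all counted. These counts describe letters in a window and not binding.

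Of the 17 sterol enzymes, 2 fell (Hmgcs1 and Idi1) and 0 rose against control siRNA cells, where 2.87% and 5.25% of all genes did. At an unadjusted p under 0.05 there were 5 of the 17, against 23.1% of all genes. Both endoglin siRNA arrays were below 0 for 15 of the 17, against 27.4% of all genes. Under median centring this held for 0 of 17, against 28.4%. Acat2, which joins acetyl-CoA units, had ratios of -0.033 and -0.30 under the siRNA, and of -0.17 and 0.42 in untreated cells. The kinases Mvk and Pmvk and the decarboxylase Mvd, which turn mevalonate into isopentenyl diphosphate, had mean ratios of -0.13, -0.23 and -0.15 under the siRNA. Their adjusted p was 0.325, 0.0875 and 0.259 by limma, so none of these 3 genes passed. In untreated cells the means of Mvk, Pmvk and Mvd were -0.17, -0.10 and -0.017.

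Fdps, which makes farnesyl diphosphate, had ratios of -0.21 and -0.44 under the siRNA and of -0.22 and 0.29 in untreated cells. Its mean of -0.33 ± 0.12 (SE, n = 2) did not pass (limma, adjusted p = 0.155), and the 2 groups overlapped because both 1-animal arrays were alike. Fdft1, which joins 2 farnesyl diphosphates into squalene, had a mean of -0.16 (adjusted p = 0.195). Sqle, which oxidizes squalene, and Lss, which closes it to lanosterol, had means of -0.080 and -0.085 under the siRNA and of 0.24 and 0.12 in untreated cells. For Sqle and Lss both endoglin siRNA arrays lay below both untreated arrays, though neither difference passed (limma, adjusted p = 0.485 and 0.622).

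The 7 enzymes from lanosterol to cholesterol had mean ratios between -0.25 and 0.015 under the siRNA, and 0 of them had an unadjusted p under 0.05. Sc4mol, the C4 methyl oxidase now named Msmo1, was at the low end with -0.12 and -0.37 under the siRNA, and -0.17 and 0.35 in untreated cells (adjusted p = 0.286 against control siRNA). Its partner in C4 demethylation, Nsdhl, had -0.25 and -0.057, and Hsd17b7, the reductase of that step, had 0.016 and -0.087. Cyp51, the lanosterol demethylase, had ratios of -0.18 and -0.087 under the siRNA and of 0.0074 and 0.31 in untreated cells, with no overlap. Ebp, Sc5d and Dhcr7, which shift, add and reduce double bonds of the sterol rings, had means of -0.11, 0.015 and -0.041. After loess the 95% intervals of these 3 means ran from -0.27 to 0.041, from -0.21 to 0.24 and from -0.23 to 0.15. They leave room for changes either way and do not cover the choice of normalization. Under median centring the 3 means were 0.94, 0.79 and 0.84.

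Of the 6 regulators and transport genes, 0 passed in limma against control siRNA cells, and 4 had an unadjusted p under 0.05, against 23.1% of all genes. Insig1, a retention protein that is itself switched on by SREBP, had ratios of -0.23 and -0.30 under the siRNA and of 0.14 and 0.37 in untreated cells. On this probe the 2 groups lay on opposite sides of 0, but on the other 3 Insig1 probes the 1-animal untreated array was below 0 too, and under median centring this probe had 0.72 and 0.96 under the siRNA and 1.03 and -0.20 in untreated cells. The mean of -0.27 ± 0.07 (SE, n = 2) under the siRNA and the difference of -0.52 ± 0.11 from untreated cells both missed the threshold (limma, adjusted p = 0.0755 and 0.195). Insig2, its relative, had -0.26 and -0.16 under the siRNA and 0.028 and -0.18 in untreated cells. Stard4, which carries sterol between membranes, had -0.30 and -0.15 under the siRNA and 0.045 and -0.13 in untreated cells. The means of Insig2 and Stard4 were -0.21 and -0.22 (adjusted p = 0.138 and 0.117).

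Srebf1 was the one gene of the 31 with both endoglin siRNA arrays above both untreated arrays, against 6221 of all 25534 genes. Its ratios were 0.18 and 0.33 under the siRNA and 0.098 and 0.14 in untreated cells, and the mean under the siRNA was 0.25 ± 0.07 (SE, n = 2; limma, adjusted p = 0.0626). Without the 10 disturbed spots described below the groups overlapped, with 0.18 and 0.24 under the siRNA and 0.098 and 0.22 in untreated cells. They also overlapped without background correction and with the log ratios of the scanner software. A second Srebf1 probe, printed as 10 spots, had a mean of -0.20 under the siRNA, so the probes did not have one direction. Its 10 spots had an SD of 0.02 to 0.05 per array, which is less than the distance between the probes. Srebf2 and Scap had means of -0.037 and -0.053 under the siRNA, with 95% intervals from -0.18 to 0.11 and from -0.20 to 0.091. Under median centring their means were 0.051 and 1.07.

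Of the 8 fatty acid enzymes, 1 fell (Me1) and 0 rose, against 2.87% and 5.25% of all genes. Me1 was also the only one of the 8 with an unadjusted p under 0.05, against 23.1% of all genes. Both endoglin siRNA arrays were below 0 for 5 of the 8, against 27.4% of all genes. Under median centring this held for 2 of 8, against 28.4%. Acly, which makes cytosolic acetyl-CoA from citrate, had ratios of -0.069 and -0.21 under the siRNA and of 0.00057 and 0.038 in untreated cells. Acaca and Fasn, which make malonyl-CoA and build the chain from it, had means of -0.0011 and 0.12 under the siRNA (adjusted p = 0.994 and 0.353). Their 95% intervals ran from -0.16 to 0.16 and from -0.036 to 0.27. On the probes used, the core chain-building enzymes thus had mean ratios near or above 0 in the same cells in which Me1 was lowest. The second probes of Acaca and Fasn had means of 0.050 and -0.087 under the siRNA. Under median centring Acaca and Fasn had means of 1.03 and 1.14, and Me1 had 0.20.

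Among elongation and desaturation genes, Scd and Elovl6 differed by RNA source. Scd, the stearoyl-CoA desaturase named Scd1 on the array, had -0.66 on the 1-animal endoglin siRNA array and -0.026 on the pooled one, and -0.32 and 0.035 in untreated cells. The mean of -0.34 under the siRNA did not pass (limma, adjusted p = 0.221). The pooled endoglin siRNA value of Scd depended on the background fit: it was -0.19 without the 10 spots described below, -0.30 without background correction, where Scd passed (adjusted p = 0.0299), and -0.63 with the log ratios of the scanner software. Scd did pass when the pooled endoglin siRNA array was left out (-0.66, adjusted p = 0.0179). Elovl6, which lengthens palmitate, had -0.31 and 0.096 under the siRNA and -0.17 and 0.20 in untreated cells. Its pooled endoglin siRNA value was -0.055 without the 10 spots, -0.077 without background correction and -0.028 with the log ratios of the scanner software. The second Elovl6 probe had -0.020 and 0.0017 under the siRNA. Fads1, which desaturates polyunsaturated chains, had -0.098 and -0.080 under the siRNA and -0.029 and 0.046 in untreated cells. Fads2, the other desaturase of that pathway, was not well above background in Cy5 on either endoglin siRNA array, while it was in Cy3 on 1 of those 2 arrays and in Cy5 on both untreated arrays. Its endoglin siRNA level thus has only an upper bound, and the difference from control siRNA cells did not pass (limma, adjusted p = 0.228).

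**Figure D2:**
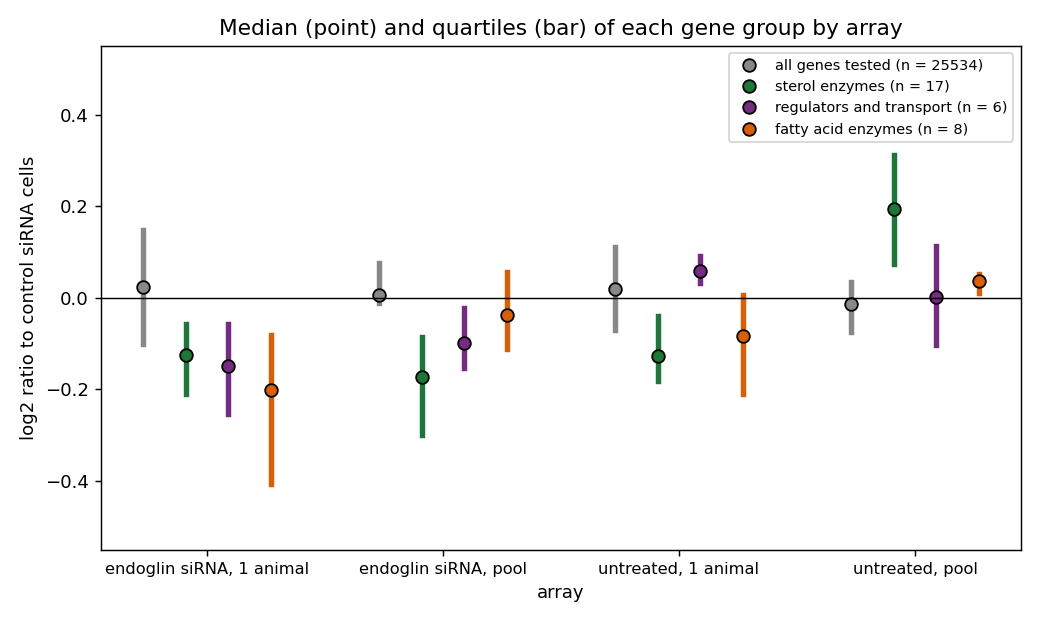
The plot gives the median (point) and quartiles (bar) of the log2 ratio to control siRNA cells (vertical axis) on each array (horizontal axis) for all genes tested and for the 3 gene groups after loess. The sterol enzyme median was 0.19 on the pooled untreated array and between -0.17 and -0.12 on the other three; under median centring it was -0.28 there and between 0.60 and 0.88 on the other three.

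The sterol and fatty acid enzymes were set side by side on each array. The sterol enzyme median was -0.12 and -0.17 on the 1-animal and pooled endoglin siRNA arrays, and -0.13 and 0.19 on the untreated arrays. The fatty acid enzyme median was -0.20 and -0.037 under the siRNA, and -0.084 and 0.037 in untreated cells. The order of the RNA sources in the fatty acid branch depended on the background fit: without the 10 spots described below its medians under the siRNA were -0.20 for 1 animal and -0.21 for the pool, and without background correction they were -0.19 and -0.27. The median of all genes lay between -0.014 and 0.023 on the 4 arrays. Under median centring the sterol medians were 0.65 and 0.88 under the siRNA and 0.60 and -0.28 in untreated cells, and the fatty acid medians were 0.19 and 0.72, and 0.36 and -0.41. The all-gene median then lay at 0.35 and 0.25 under the siRNA, and at 0.34 and -0.16 in untreated cells.

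Untreated cells were compared with control siRNA cells on the other two arrays. Of the 31 genes 0 passed in limma, against 0.709% of all genes, and 3 had an unadjusted p under 0.05, against 13.6% of all genes. These were Sqle and Insig1 at 0.24 and 0.25, and Me1 at -0.31 (adjusted p = 0.238, 0.195 and 0.201). The RNA sources differed: 12 of the 31 genes were below 0 on the 1-animal array and above 0 on the pooled array, against 12.2% of all genes, and 9 of these were sterol enzymes. On the pooled untreated array the highest were Acat2 at 0.42, Insig1 at 0.37, Sqle at 0.37, Sc4mol at 0.35 and Sc5d at 0.32. On the 1-animal untreated array the same genes had -0.17, 0.14, 0.10, -0.17 and -0.041. These values are after loess. Under median centring these genes lay between 0.61 and 1.03 on the 1-animal array and between -0.23 and -0.14 on the pooled one. The all-gene medians were then 0.34 and -0.16 in the same order. The pooled untreated array is also the one with the largest share of spots above background, and the part of this in the sterol enzyme ratios was not tested.

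**Figure D3:**
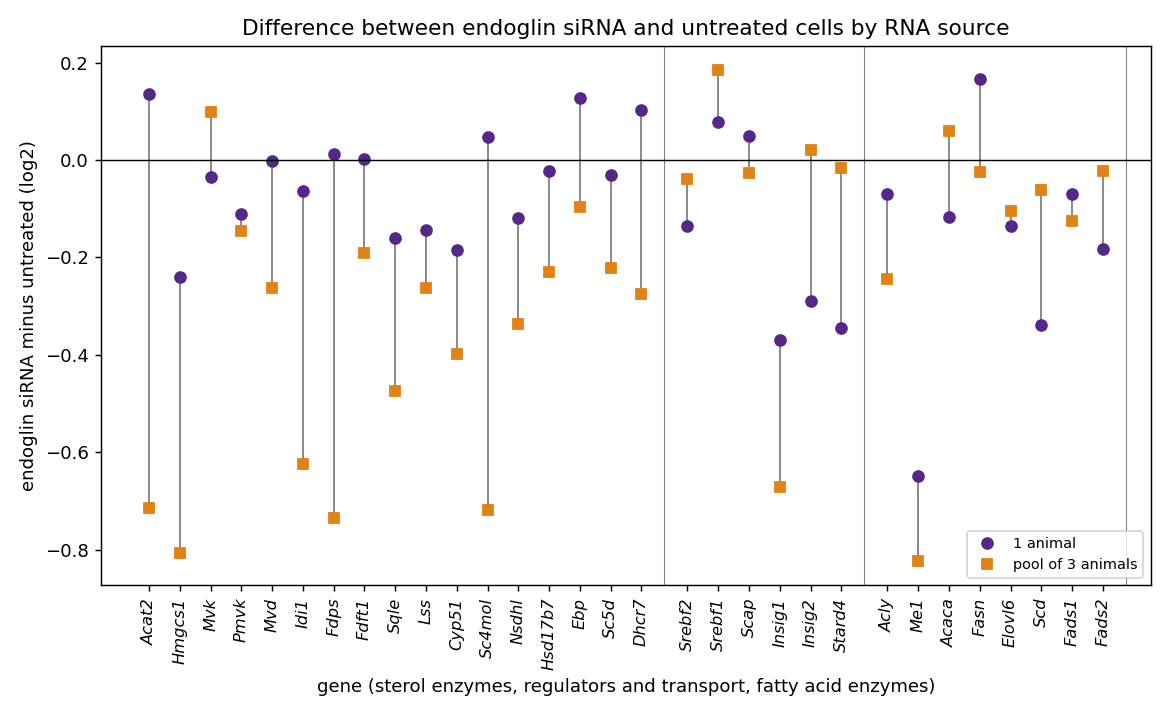
The plot gives the difference between endoglin siRNA and untreated arrays on the log2 scale (vertical axis) for each gene (horizontal axis), with the 1-animal arrays as circles and the pooled arrays as squares, after loess. In the pool 16 of 17 sterol enzymes were below 0, and 11 of 17 were in the 1-animal arrays; under median centring the counts were 0 and 8.

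Against untreated cells, 0 of the 31 genes passed in limma, where 0.0862% of all genes passed (0.0509% lower), and 6 had an unadjusted p under 0.05, against 8.23% of all genes: Hmgcs1, Idi1, Sqle, Cyp51, Insig1 and Me1. Me1 differed by -0.74 ± 0.13 (SE, n = 2 per group; adjusted p = 0.178), Hmgcs1 by -0.52 ± 0.17 (adjusted p = 0.457) and Insig1 by -0.52 ± 0.11 (adjusted p = 0.195). Both endoglin siRNA arrays lay below both untreated arrays for 14 of the 31 genes, against 11.5% of all genes. Under median centring this held for 0 of 31, against 3.58% of all genes. The 14 were 8 sterol enzymes (Hmgcs1, Pmvk, Mvd, Idi1, Sqle, Lss, Cyp51 and Hsd17b7), 3 regulators and transport genes (Srebf2, Insig1 and Stard4) and 3 fatty acid enzymes (Acly, Me1 and Fads1). In the brightest quartile of genes the share after loess was 16.9%. This comparison and the one against control siRNA use the same endoglin siRNA arrays, so the 2 counts are not independent.

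The size of the difference from untreated cells depended on the RNA source. For the sterol enzymes the median difference was -0.03 between the 1-animal arrays and -0.27 between the pooled arrays, and for the fatty acid enzymes it was -0.13 and -0.08. Without the 10 spots described below these became -0.03 and -0.63 for the sterol enzymes and -0.13 and -0.33 for the fatty acid enzymes, and under median centring they were 0.0072 and 1.24, and -0.068 and 1.21. Hmgcs1 differed by -0.24 in the 1-animal arrays and by -0.81 in the pool, Idi1 by -0.064 and -0.62, and Me1 by -0.65 and -0.82. Under median centring the pooled differences of Hmgcs1, Idi1 and Me1 turned to 1.1, 1.22 and 1.22, while those of the 1-animal arrays were -0.12, 0.0073 and -0.60. Acat2 differed by 0.14 in the 1-animal arrays and by -0.71 in the pool.

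**Figure D4:**
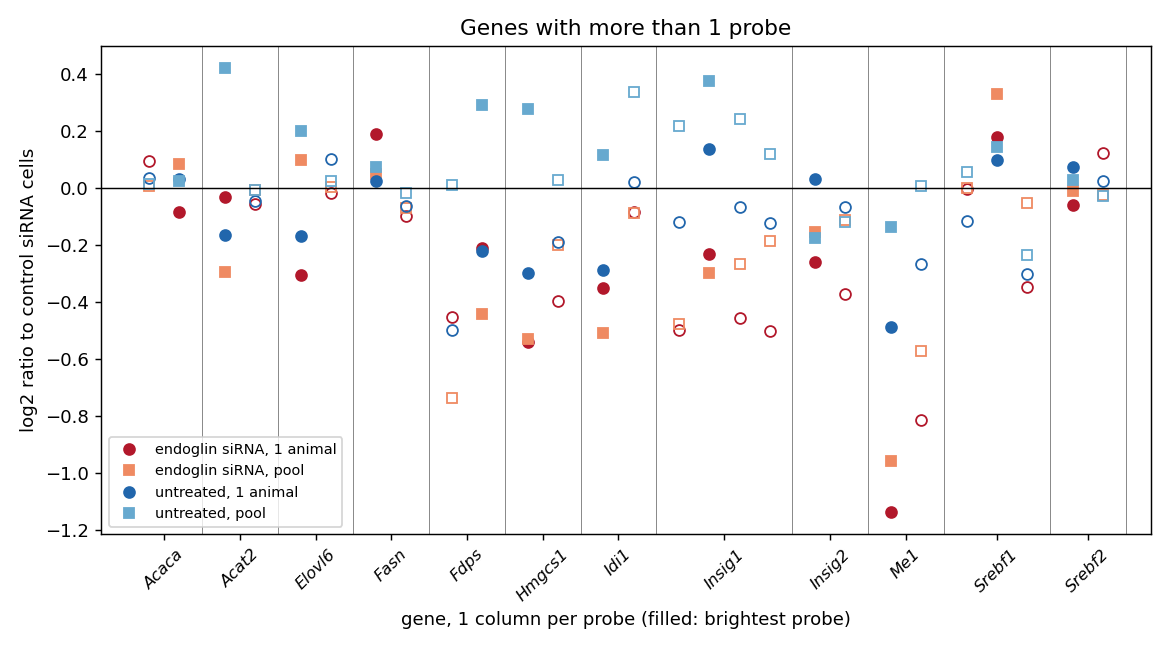
The plot gives the log2 ratio to control siRNA cells (vertical axis) for each probe (1 column each) of the 12 genes with more than 1 probe on each of the 4 arrays; filled symbols are the brightest probe used in the text. All 4 Insig1 probes and both Me1 probes were below 0 on both endoglin siRNA arrays, and the Srebf1 probes lay on both sides of 0.

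More than 1 probe was printed for 12 of the 31 genes. For 8 of the 12 all probes had the same sign of the mean under the endoglin siRNA, and for the other four, Srebf1, Srebf2, Acaca and Fasn, they did not. The second probes of Me1, Hmgcs1 and Fdps had means of -0.69, -0.30 and -0.60. The second Idi1 probe had a mean of -0.088, and the call for Idi1 was lost when the probes of a gene were averaged (-0.26, limma, adjusted p = 0.144). The 4 Insig1 probes had means of -0.49, -0.36, -0.35 and -0.27, and Insig1 passed on their average (-0.37, adjusted p = 0.0431). All 4 Insig1 probes were above 0 on the pooled untreated array, between 0.12 and 0.37, and on the 1-animal untreated array the 3 probes not used lay at -0.12, -0.067 and -0.13.

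**Figure D5:**
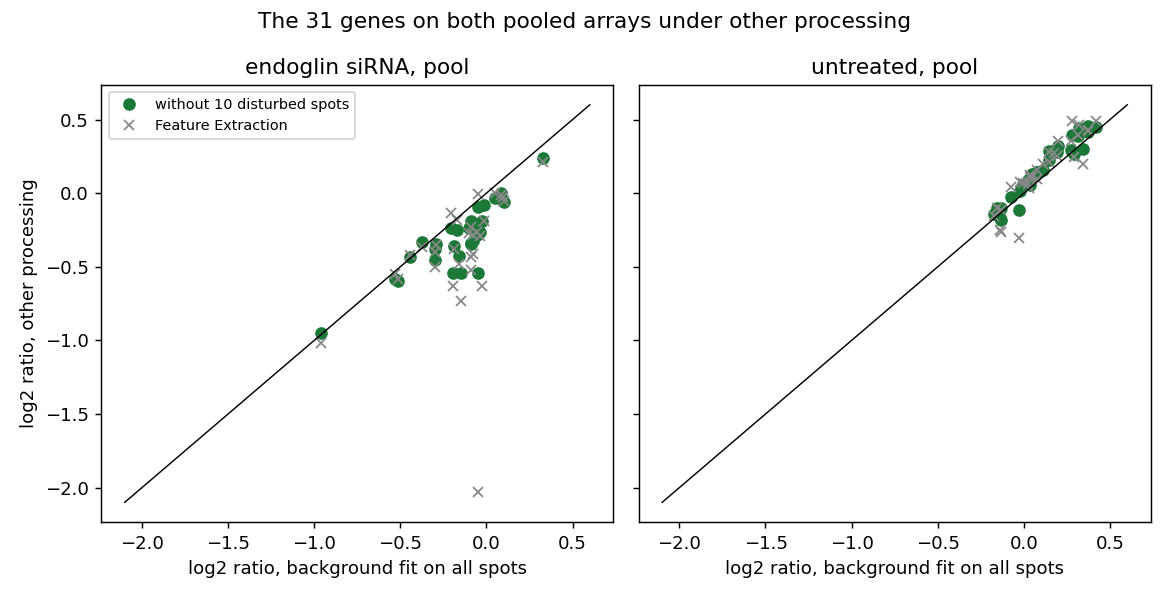
The plot sets each gene's log2 ratio with the background fitted on all spots (horizontal axis) against its ratio under other processing (vertical axis), for both pooled arrays; circles leave 10 spots out of the background fit, crosses are the log ratios of the scanner software, and the line marks equal values. On the pooled endoglin siRNA array 28 of the 31 genes had a lower ratio without the 10 spots and 27 of 31 with the scanner software, and Hsd17b7 went from -0.087 to -0.34 and to -0.52; the lowest cross is Fads2, which was not above background there in Cy5.

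On the pooled arrays the background model rested on a few spots. There were 10 spots, 4 on the endoglin siRNA pool and 6 on the untreated pool, whose mean signal lay more than 100 intensity units below their local background. With them the fitted background mean was -486.1 in Cy5 and -415.7 in Cy3 on the endoglin siRNA pool and -775 and -101.9 on the untreated pool, and without them it was -11.13 and -17, and -0.053 and -9.55. A strongly negative background mean adds a constant to all signals and draws ratios of dim genes toward 0. When the spots were left out, an alternative added after seeing the data, 7 of the 31 genes fell under the siRNA. Of all 25534 genes 1871 passed on the lower side, and 16.3% passed in either direction. To Hmgcs1, Idi1 and Me1 came Pmvk (-0.31, limma, adjusted p = 0.0485), Insig2 (-0.34, adjusted p = 0.0256), Stard4 (-0.42, adjusted p = 0.0183) and Fads2. No size or p-value is given for Fads2, which is among the 7. Its Cy5 signal was not above background on either endoglin siRNA array, so its test compares a background-level signal. The sterol enzyme median on the pooled endoglin siRNA array was then -0.34 and the fatty acid enzyme median -0.21, and 20 of the 31 genes did not overlap with untreated cells on the lower side, against 18.5% of all genes.

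Other genes of sterol and fatty acid metabolism were listed by role, and 49 of the 53 listed were measured. Against control siRNA cells 3 of the 49 fell and 1 rose, a share near the 8.12% of all genes that passed in either direction, and 0 of the 49 passed in the other comparisons by limma. Slc25a1, the carrier that exports citrate from mitochondria for fatty acid synthesis, had ratios of -0.93 and -0.50 under the siRNA and of -0.28 and -0.19 in untreated cells. Its mean of -0.72 ± 0.10 (SE, n = 2) passed (adjusted p = 0.0098). Lpcat3, an LXR target that places polyunsaturated chains in phospholipids and is named Oact5 on the array, had -0.48 and -0.46 under the siRNA and -0.30 and -0.37 in untreated cells (mean -0.47, adjusted p = 0.00836). Soat1, which esterifies cholesterol for storage, had -0.58 and -0.20 under the siRNA and -0.33 and -0.28 in untreated cells (mean -0.39, adjusted p = 0.0464). For Slc25a1, Lpcat3 and Soat1 the untreated arrays were below 0 as well. Under median centring 0 of the 25534 genes passed, these included.

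Cpt1a, which commits fatty acids to mitochondrial oxidation, was the gene that rose, with 0.43 and 0.23 under the siRNA and 0.039 and -0.023 in untreated cells (mean 0.33, limma, adjusted p = 0.0339). None of the other 9 oxidation genes passed. Of the other 5 sterol synthesis genes 0 passed by limma. Tm7sf2, a sterol reductase, had -1.02 and -0.12 under the siRNA and 0.021 and 0.48 in untreated cells (adjusted p = 0.133). Among genes of SREBP processing, the protease Mbtps1 had -0.52 and -0.12 (adjusted p = 0.0907). The LXR-regulated exporters Abca1 and Abcg1 had means of 0.30 and 0.47 under the siRNA (adjusted p = 0.0548 and 0.0841). The median mean ratio of the 7 genes listed as LXR and its targets was -0.075, with Lpcat3 at -0.47 and Mylip at -0.27.

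Summed markers of some other liver cell types differed between the groups, and those of hepatocytes overlapped. The summed Cy5 signal of 10 measured of 11 listed Kupffer cell and macrophage markers, divided by their summed Cy3 signal, gave log2 ratios of 0.92 and 1.51 in untreated cells and of 0.009 and 0.24 under the endoglin siRNA. Of the 10, Cd14 rose under the siRNA (0.35 and 0.75, limma, adjusted p = 0.0179), while Lyz2 had -0.46 and -0.57 (adjusted p = 0.284). Cd68, C1qa, C1qb and Lyz2 were higher in untreated than in control siRNA cells (limma, adjusted p = 0.0174, 0.00655, 0.0139 and 0.0391). Between endoglin siRNA and untreated cells C1qa alone of the 10 passed (-1.09, limma, adjusted p = 0.0383). For 5 measured of 8 listed sinusoidal endothelial markers the ratio of summed signals was 1.38 and 1.11 under the siRNA and near 0 in untreated cells (-0.00066 and 0.043). Of the 5, Kdr rose under the siRNA (1.33 and 0.41, limma, adjusted p = 0.031), while Pecam1, Cdh5, Tek and Vwf had means of 0.091, -0.0076, 0.077 and -0.021 and did not pass. The 7 measured of 10 listed hepatocyte markers had ratios of sums of 0.44 and 0.34 under the siRNA and of 0.47 and 0.15 in untreated cells. Of these Cyp2e1 rose under the siRNA (0.48, limma, adjusted p = 0.0107). Cyp2e1, Fgb, Tf and Apoc3 were above background in both dyes on all 4 arrays. The other listed hepatocyte markers were above background on fewer arrays in Cy3. Among those was Alb, which defines hepatocytes, above background on 1 of 4 arrays in either dye. Spp1, the 1 measured of 4 listed cholangiocyte markers, fell under the siRNA (-0.49, limma, adjusted p = 0.0406), was higher in untreated than in control siRNA cells (1.18, adjusted p = 0.0139) and differed by -1.67 between endoglin siRNA and untreated cells (adjusted p = 0.0257). Epcam of cholangiocytes was above background on 0 arrays. Of 4 listed adipocyte markers 0 were kept. The part of other cell types in the sterol and fatty acid gene ratios was not tested.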

How the data were processed

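Per the labels, Cy5 carried the untreated or endoglin siRNA RNA and Cy3 the control siRNA RNA. Per the file headers, the authors ran Feature Extraction 9.5.1.1 on the scans to give linear intensities per spot and dye. Its log ratios were deposited as log10 values, red over green. A deposited value table holds the same log10 ratios with the sign turned on both untreated arrays, and it was turned back for use as an alternative. There were 45018 spots per array, 1639 of them controls.

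From these, mean signals were corrected with normexp (offset 50), and log2 ratios were normalized by loess with controls at weight 0. Outlier spots were left out, and replicate spots were averaged. Among 41012 gene probes, 30021 were above background as required, 29845 had a usable spot on every array, and the brightest per gene name gave 25534 genes. limma 3.58.1 in R 4.3.3 fitted 2 group means over 4 arrays (prior degrees of freedom 5.27) with Benjamini-Hochberg adjustment over all genes at 0.05; the 3 comparisons share this fit, and intervals are 95%. The fit was tested on simulated data. Each of the 31 genes is named; those that passed, or had one sign and a size of at least 0.3 on both arrays of a group, have their values on every array, with those of others where they bear on a role. Other pathway genes are named if they passed, else the largest with one sign on both arrays, and Abca1 and Abcg1 besides, chosen after their values were seen; some genes of these lists are not reported here. Members and lists were chosen with earlier results of these data known. Alternatives were other background, normalization, filter and probe settings, the RNA source as a block, and each array left out. The number of arrays, 2 per group, limits precision. Positions are given for the printed RefSeq promoters alone, since the files name no genome build.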

Additional observations from a re-analysis of the deposited data

How the results depend on the processing

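Against control siRNA, 2073 genes and 3 of the 31 genes passed, the sterol and fatty acid medians were -0.15 and -0.12, and 181 and 22 genes passed in the untreated comparison and between endoglin siRNA and untreated cells, where the fatty acid median was -0.11. Without background correction these became 4515 genes, 10 of the 31, -0.24, -0.25, 509, 168 and -0.27. With the 10 disturbed spots out of the background fit, an alternative chosen after seeing the data, they became 4157 genes, 7 of the 31, a sterol median of -0.23, 461, 203 and a fatty acid median of -0.26 against untreated. Both these counts of the 31 include Fads2, whose Cy5 signal was not above background on either endoglin siRNA array. The log ratios of Feature Extraction and the deposited value table each left 0 genes in all 3 comparisons and 0 of the 31, with medians of -0.27 and -0.28 against control siRNA and -0.28 for fatty acid enzymes against untreated; 7111 and 7108 genes had an unadjusted p under 0.05 against control siRNA in limma. Scaling between arrays also left 0 genes and 0 of the 31, with a sterol median of -0.30 and 1502 genes at an unadjusted p under 0.05.

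Median centring in place of loess left 0 genes and 0 of the 31 in limma, with 6185 genes at an unadjusted p under 0.05, and turned the direction: the sterol and fatty acid medians were 0.78 and 0.41 against control siRNA and 0.63 and 0.43 against untreated, and Hmgcs1, Idi1 and Me1 had 0.62, 0.65 and 0.20. The median of all genes was then 0.32 and 0.26 in these comparisons, and the remaining trend with brightness was part of this setting. No filter on dim probes raised the genes tested to 35425. It gave 357 genes (1.01%) in the untreated comparison and 47 (0.133%) between endoglin siRNA and untreated cells. With the filter the shares were 0.709% and 0.0862% of 25534 genes.

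The RNA source was also taken as a replicate block. It gave 3964 genes and 7 of the 31 (Hmgcs1, Pmvk, Idi1, Insig1, Me1 and Scd lower, Srebf1 higher) against control siRNA, 1045 genes and 1 of the 31 (Me1) for untreated cells, and 270 genes and 1 of the 31 (Me1) between endoglin siRNA and untreated cells. Deviations from the group means of arrays with the same source had a correlation of 0.293 over 25534 genes, which are not independent; the labels do not pair the arrays.

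Leaving out 1 array gave 900 to 2684 genes and 1 to 3 of the 31 against control siRNA, the lowest without the 1-animal endoglin siRNA array, where Me1 alone of the 31 remained. In the untreated comparison it gave 0 to 760 genes and a fatty acid median of -0.084 to 0.037, and between endoglin siRNA and untreated cells 0 to 434 genes, 0 to 1 of the 31 (Me1, without the pooled endoglin siRNA array) and a fatty acid median of -0.18 to 0.018. The 0 genes came without the pooled untreated array, with 1997 and 1237 genes at an unadjusted p under 0.05. In these fits a lone array is assumed to vary like the other group. Unless stated, the cause of a change was not tested. Of 1209 values for single genes under all alternatives, 20 newly passed and 14 kept their direction but no longer passed. The sign was opposite for 131, of which 56 came with median centring. The 3 of these that had passed before are Hmgcs1, Idi1 and Me1 above. Only these 3 genes, against control siRNA, had a call to lose. Over the 13 alternatives Me1 kept its call in 9, Hmgcs1 in 7 and Idi1 in 6.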
